A study of Mus musculus with 9 samples.

Results

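Matrix metalloproteases are zinc enzymes, secreted or bound to the membrane, that cut collagens, gelatin, elastin and other matrix proteins. The TIMP proteins (tissue inhibitors of metalloproteases) block their active site, and ADAM enzymes are related membrane proteases that release ectodomains of surface proteins. The 10 genes described here are 7 matrix metalloproteases (Mmp13, Mmp3, Mmp10, Mmp2, Mmp9, Mmp12 and Mmp14), the sheddase Adam8 and the inhibitors Timp1 and Timp3. They were taken by symbol from the array's table of probe sets and genes, and all 10 of the 10 were among the 17097 genes measured. A gene with several probe sets is represented by the one whose mean over all 9 arrays was highest. The genes were divided into a tumour and inflammation group of 6 (Mmp9, Mmp10, Mmp12, Mmp13, Timp1 and Adam8) and a stromal group of 4 (Mmp2, Mmp3, Mmp14 and Timp3). The grouping follows the cells in which each gene is usually described.

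The arrays measured RNA of whole bladders from female C57BL/6J mice, whose age is not given in the labels. Tumours were made by coating the bladder with poly-L-lysine and then instilling MB49 cells, a mouse bladder carcinoma line, on day 0. Each tumour array is thus a mixture of implanted cells of 1 line and host bladder. The treated tumours received alpha1-oleate, a complex of a peptide of alpha-lactalbumin with oleate, at 1.7, 8.5 or 17 mM in 5 instillations between day 3 and day 11, and sham tumours received PBS. Tumour bladders were taken on day 12. Mice labelled healthy received PBS, or 17 mM alpha1-oleate with bladders taken after 24 h or 7 days. The number of instillations in these mice is not given. Experiment 1 had 5 arrays (healthy PBS, tumour PBS and tumours at 3 doses) and experiment 2 had 4 (healthy PBS, tumour PBS and healthy at 24 h and at 7 d). The 7 groups therefore held 2 arrays each for healthy PBS and tumour PBS and 1 array each for the other 5. The labels do not say whether an array is 1 mouse or a pool, so the spread between these samples may be technical. The p-values rest on that spread together with a spread estimated over all genes. In whole tissue, fewer cells of a type and less RNA per cell cannot be told apart.

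Values are log2 signals after robust multi-array averaging (RMA), so a difference of 1 is a doubling of signal. Array medians lay at 4.42 to 4.45 in experiment 1 and 4.20 to 4.24 in experiment 2, and differences are given within an experiment. In the limma fit, experiment was a term, and a gene was called at a Benjamini-Hochberg adjusted p under 0.05 over the 11969 genes kept. The filter removed the 30% of genes with the lowest means (below 4.16 log2), which left 9 of the 10 genes. Mmp3 fell below it. The smallest groups had 1 array and were assumed to vary like the healthy and tumour PBS groups. Precision is limited by how few arrays there were.

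The array labelled healthy, 17 mM, 24 h did not look like the other healthy arrays. All 9 of the 9 mitosis markers measured lay above both healthy PBS arrays and below both tumour PBS arrays there, 1.12 to 3.93 log2 above the healthy PBS array of experiment 2. On the healthy 7 d array the same differences were -0.26 to 0.78. The 24 h array is therefore called by its label throughout, and leaving it out changed no call of a gene described here in the other comparisons. Bladder identity was checked with uroplakins and other urothelial markers, whose summed signal was 25200 and 18600 on the healthy PBS arrays and 2680 and 1450 on the tumour PBS arrays.

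4 of the 10 genes, Mmp13, Mmp12, Mmp3 and Mmp10, lie together on chromosome 9 among other metalloprotease genes, and their promoters are shown because AP-1 sites near the start are a textbook feature of this cluster. AP-1 is a dimer of Fos and Jun family proteins. RefSeq promoter windows of 250 bases before the start (GRCm38.p6) were held for 8 of the 10 genes, as 9 windows since Mmp12 has more than 1 start, and Mmp2 and Mmp9 have no entry. The letters TGANTCA, searched on both strands, were found in 4 of the 9 windows, those of these genes, with the second start of Mmp12. Over all 32851 windows of this length 6.75% held them. The last 100 bases before the start of each are given below, 5′ to 3′ on the plus strand, with the match in capitals.
Mmp13, chr9:7272414-7272513: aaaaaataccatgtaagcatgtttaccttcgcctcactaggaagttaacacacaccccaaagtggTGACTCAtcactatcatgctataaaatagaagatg
Mmp12 (second start), chr9:7347274-7347373: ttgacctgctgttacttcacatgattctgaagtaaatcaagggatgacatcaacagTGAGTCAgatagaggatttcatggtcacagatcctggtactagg
Mmp3, chr9:7445722-7445821: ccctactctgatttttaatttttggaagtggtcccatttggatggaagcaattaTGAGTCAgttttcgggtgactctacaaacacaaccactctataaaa
Mmp10, chr9:7502242-7502341: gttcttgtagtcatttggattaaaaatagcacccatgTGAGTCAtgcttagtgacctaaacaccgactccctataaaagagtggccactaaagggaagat
The match began 35 bases before the start in Mmp13, 44 in Mmp12, 46 in Mmp3 and 63 in Mmp10. No match lay in the windows of Adam8, Timp1, Timp3, Mmp14 or the first start of Mmp12. The ETS motif AGGAAG, called PEA3, is a common partner of AP-1 and was found in 29.5% of all windows on either strand. It lay in 6 of the 9 windows, 2 times each in those of Mmp13 (109 and 62 bases before the start) and Timp1, and 1 time each in those of Mmp3 (183 bases before), Timp3, Mmp14 and the first start of Mmp12. Both motifs together were in 1.98% of all windows. These matches describe letters and not binding, and Mmp3, whose window holds both, read 3.11 to 4.84 log2 over the 9 arrays.

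Sham tumours held more RNA of all 6 genes of the tumour and inflammation group than healthy bladders, and less Mmp2 and Timp3. By limma, 7 of the 9 genes tested were higher and 2 lower (2 arrays against 2), where 28.6% of all genes tested were higher and 28.6% lower. The median over the 9 genes was 3.52 log2, against -0.005 over all genes. The tumour and inflammation group had 6 of 6 higher with a median of 4.57. The counts and medians include Mmp13, Adam8 and Mmp12, whose healthy values lay below the filter level of 4.16 (for Mmp12 in experiment 1 only). These genes passed the filter through their tumour arrays, so their part in the counts is no independent support. In the stromal group 1 rose (Mmp14) and 2 fell.

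Mmp13, a collagenase that cuts fibrillar collagen, read 3.77 log2 on the healthy PBS array and 10.05 on the tumour PBS array of experiment 1. In experiment 2 it read 2.62 and 8.62. Healthy and tumour arrays were far apart. The healthy values of Mmp13 and Adam8 on both arrays, and of Mmp12 in experiment 1, lay below the filter level of 4.16. These genes passed the filter through their tumour arrays. Their fitted differences from healthy bladder therefore only describe the arrays, and the sizes and p-values are no independent support. For Mmp13 the fitted difference was 6.14 (SE 0.12, limma adjusted p = 0.0024). The stromelysin Mmp10, which cuts proteoglycans, laminin and other proenzymes, read 5.55 and 7.75 in experiment 1 and 5.11 and 6.75 in experiment 2. It rose by 1.92 (SE 0.18, adjusted p = 0.0057), with no overlap between healthy and tumour arrays. Mmp3, the other stromelysin, read 3.85 and 4.47 in experiment 1 and 3.29 and 3.23 in experiment 2, so the experiments did not share a direction. Without the filter its fitted difference was 0.28 (SE 0.21, adjusted p = 0.377).

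Of the gelatinases, which digest denatured and basement membrane collagen, Mmp9 and Mmp2 differed in direction. Mmp9 read 5.52 and 10.40 on the healthy and tumour PBS arrays of experiment 1 and 4.92 and 9.67 on those of experiment 2. It rose by 4.82 (SE 0.09, adjusted p = 0.0024). Mmp9 is stored in neutrophils and made by macrophages as well as tumour cells, while Mmp2 is typically made by fibroblasts. Mmp2 read 8.41 and 7.85 in experiment 1 and 7.95 and 7.39 in experiment 2. The difference was -0.56 in each experiment and -0.56 in the fit (SE 0.09, adjusted p = 0.0154). As both experiments gave the same difference, this SE and p-value rest wholly on the spread estimated over all genes. Across experiments the groups came close, with 7.85 in a tumour next to 7.95 in a healthy bladder. Without experiment as a block (no replicate block), the Mmp2 difference was not called (-0.56, adjusted p = 0.424), nor was it with any 1 of the 4 PBS arrays and the block left out (adjusted p = 0.326 to 0.814).

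Mmp12, the macrophage elastase, read 3.13 on the healthy PBS array and 7.95 on the tumour PBS array of experiment 1. In experiment 2 the values were 4.91 and 7.12. All tumour values were above all healthy values, but the differences were 4.82 and 2.21, the widest gap between experiments among the 10 genes. The fit gave 3.52 (SE 0.73, adjusted p = 0.0292), with the limit given for Mmp13, as the healthy value of experiment 1 lay below the filter level. Mmp14, a membrane-type protease that activates pro-Mmp2 with the help of a TIMP, read 7.95 and 9.86 in experiment 1 and 6.72 and 9.46 in experiment 2. It rose by 2.33 (SE 0.25, adjusted p = 0.0072), and its second probe set was higher by 2.55 and 3.54 in the tumours.

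Adam8, a sheddase of leukocytes and tumour cells, read 3.95 and 9.22 on the healthy and tumour PBS arrays of experiment 1 and 4.07 and 9.01 in experiment 2. Its fitted difference was 5.11 (SE 0.13, adjusted p = 0.0024), with the limit given for Mmp13, as both healthy values lay below the filter level. The inhibitors moved in opposite directions. Timp1, a secreted inhibitor induced in inflamed tissue, read 5.28 and 10.16 in experiment 1 and 5.65 and 9.41 in experiment 2, and rose by 4.32 (SE 0.32, adjusted p = 0.0041). Timp3, which stays bound to the matrix and also inhibits ADAM enzymes, read 9.56 and 7.87 in experiment 1 and 9.18 and 6.92 in experiment 2. It fell by 1.98 (SE 0.18, adjusted p = 0.0055), without overlap of the groups, and all 4 of its probe sets were lower in both tumours.

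**Figure D1:**
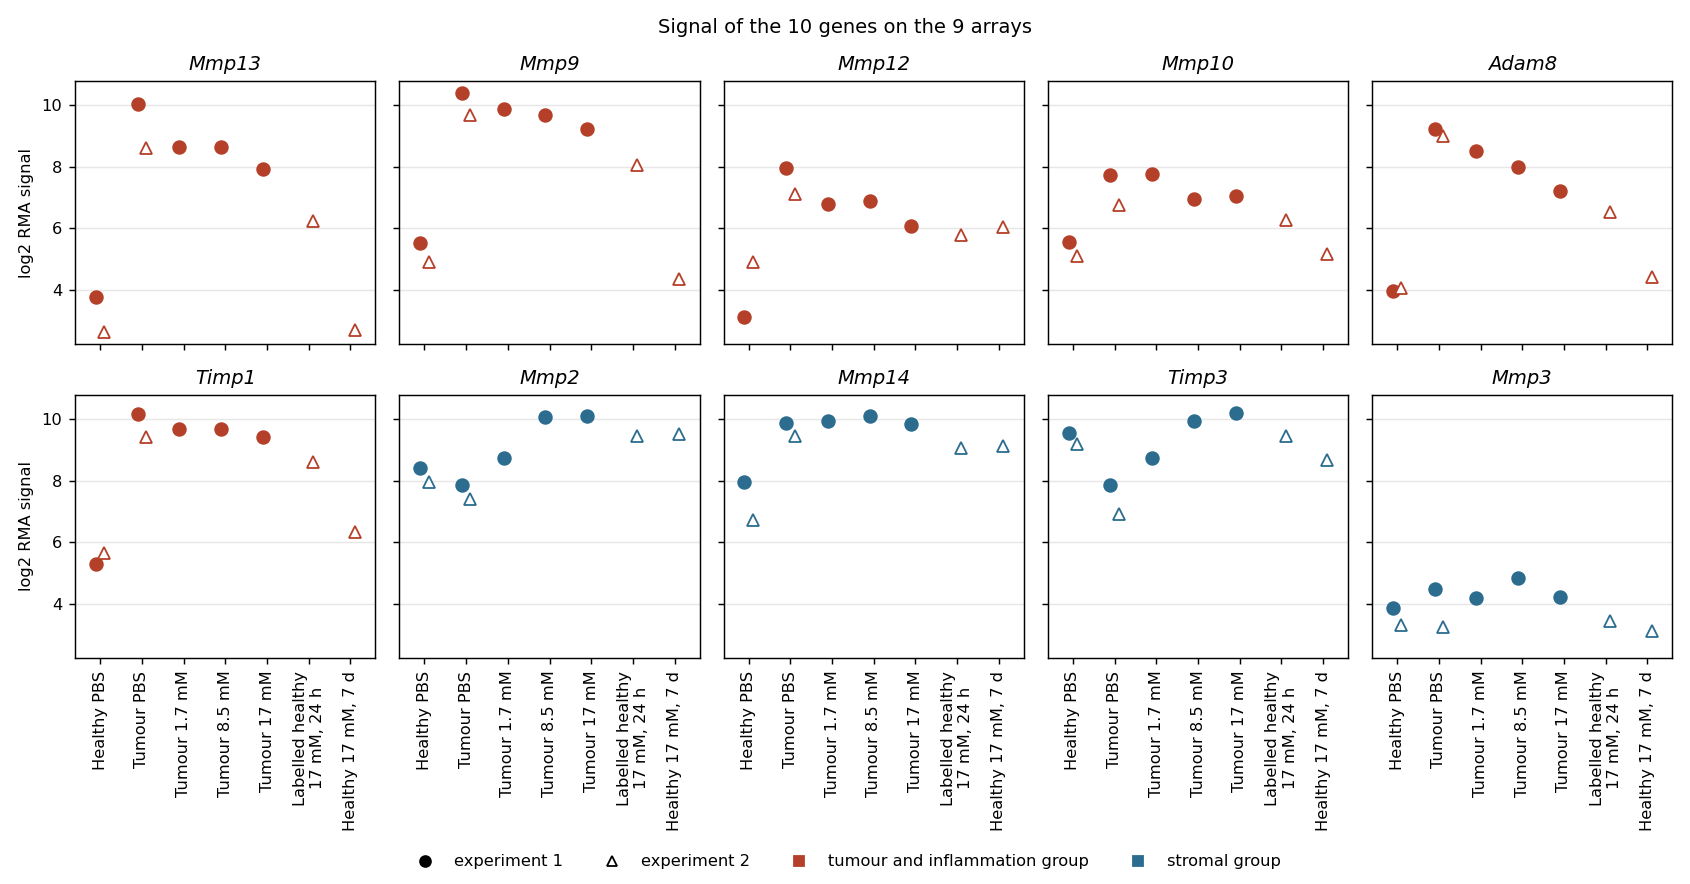
Each panel shows 1 gene, with log2 RMA signal on the y axis and the group on the x axis. Each point is 1 array, filled circles for experiment 1 and open triangles for experiment 2, in red for the tumour and inflammation group and blue for the stromal group. Mmp13, Mmp9, Adam8 and Timp1 were low on both healthy PBS arrays and on the 7 d array, higher on all tumour arrays, and between the healthy and tumour PBS arrays of experiment 2 on the array labelled healthy, 17 mM, 24 h.

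Markers of several cell types differed between the same arrays. The summed linear signal of the macrophage markers (10 of 10 measured, all kept) was 1820 and 1200 on the healthy PBS arrays and 9490 and 5510 on the tumour PBS arrays. Of the 10 macrophage markers 9 rose. Neutrophil markers (8 measured, 6 kept, with Mpo and Camp below the filter) summed to 223 and 146 in healthy bladder and 2930 and 1550 in tumours. Of the 6 tested, 3 rose (S100a8, S100a9 and Csf3r) and 0 fell, and S100a8 and S100a9 had by far the highest tumour signals of the list. Mitosis markers (9 measured) summed to 157 and 117 against 5990 and 3490. Fibroblast markers summed to 10900 and 8190 against 7310 and 4730, with Col1a2 below the filter. Of the 9 tested, 4 fell (Dcn, Lum, Dpt and Fbln1) and 0 rose. Their median difference was 0.155 log2, so the list as a whole did not fall. Smooth muscle markers (8 measured) summed to 23800 and 21600 against 11400 and 7460, and 8 of 8 fell. The part of these cell type markers in the differences of the proteases and inhibitors was not tested.

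At 17 mM alpha1-oleate, the tumour array held less Mmp13, Mmp9 and Adam8 and more Mmp2 and Timp3 than sham tumours. By limma (1 array against 2), 2 of the 9 genes rose and 3 fell, while 15.7% of all genes rose and 10.6% fell. The tumour and inflammation group had 0 higher and 3 lower (median -1.19), and the stromal group had 2 higher and 0 lower (median 2.26). The median over all genes was -0.045.

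Mmp13 read 10.05 on the tumour PBS array of experiment 1, 8.66 at 1.7 mM, 8.65 at 8.5 mM and 7.94 at 17 mM, and 8.62 on the tumour PBS array of experiment 2. All treated values lay below the sham array of the same experiment, but those at 1.7 and 8.5 mM lay just above the sham array of experiment 2. Mmp13 fell by 2.04 at 17 mM (SE 0.15, adjusted p = 0.0161) and fell by 1.33 at 8.5 mM (adjusted p = 0.0317). Adam8 read 9.22, 8.52, 7.99 and 7.21 on the arrays at 0, 1.7, 8.5 and 17 mM of experiment 1, and 9.01 in the other sham tumour. All 3 treated values were below both sham values. Adam8 fell by 1.93 at 17 mM (SE 0.17, adjusted p = 0.0181) and fell by 1.15 at 8.5 mM (adjusted p = 0.0410). Mmp9 read 10.40, 9.87, 9.69 and 9.22 along the same doses and 9.67 in the other sham tumour, so that the values at 1.7 and 8.5 mM overlapped the sham range. It fell by 1.15 at 17 mM (SE 0.12, adjusted p = 0.0215), and at 8.5 mM the difference was -0.68 (adjusted p = 0.0567).

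The calls for Mmp13 and Mmp9 rested on the experiment block. Without it (no replicate block), Mmp13 at 17 mM read -1.40 (adjusted p = 0.0845), Mmp9 read -0.82 (adjusted p = 0.524), and at 8.5 mM Adam8 read -1.13 (adjusted p = 0.291) and Mmp13 -0.69 (adjusted p = 0.807). Leaving out the sham tumour of experiment 1, which removes the block too, gave -0.68 for Mmp13 and -0.45 for Mmp9 at 17 mM and 0.03 for Mmp13 at 8.5 mM. Adam8, Mmp2 and Timp3 at 17 mM stayed called under these settings. Adam8 at 8.5 mM had an adjusted p of 0.0526 without the filter on low genes.

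The other members of the tumour and inflammation group did not pass. Timp1 read 10.16 on the sham array and 9.69, 9.67 and 9.43 on the treated arrays of experiment 1, against 9.41 in the other sham tumour. The sham and treated ranges overlapped, and the difference at 17 mM was -0.45 (SE 0.43, adjusted p = 0.482). Mmp10 read 7.75, 7.78, 6.94 and 7.04 by rising dose and 6.75 in the other sham tumour, with a difference of -0.57 (SE 0.24, adjusted p = 0.170). Mmp12 read 7.95, 6.79, 6.90 and 6.07, and 7.12 in the other sham tumour. All its treated values lay below both sham values, yet its spread was wide and the difference of -1.23 (SE 0.97) had an adjusted p of 0.403.

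In the stromal group Mmp2 read 7.85 on the sham array of experiment 1 and 7.39 on that of experiment 2, and 8.74, 10.07 and 10.11 at 1.7, 8.5 and 17 mM. All treated arrays were above both sham arrays, and those at 8.5 and 17 mM were above both healthy arrays too. Mmp2 rose by 2.26 at 17 mM (SE 0.12, adjusted p = 0.0159) and by 2.22 at 8.5 mM (adjusted p = 0.0253). Timp3 read 7.87 and 6.92 in sham tumours and 8.74, 9.95 and 10.21 at the 3 doses, without overlap. It rose by 2.48 at 17 mM (SE 0.24, adjusted p = 0.0191) and by 2.22 at 8.5 mM (adjusted p = 0.0299). Mmp14 read 9.86 and 9.46 in sham tumours and 9.92, 10.09 and 9.83 at the 3 doses. The sham and treated ranges overlapped, and the difference at 17 mM was -0.24 (SE 0.33, adjusted p = 0.625), with 0.17 when experiment was not a block. The second Mmp14 probe set differed by 0.02 between the 17 mM and sham arrays of experiment 1. Mmp3 read 4.47 and 3.23 in sham tumours and 4.17, 4.84 and 4.21 at the doses.

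Over the 3 doses, 8.5 mM gave 2 higher and 2 lower of the 9 genes, against 11.0% and 4.65% of all genes. At 1.7 mM limma called 0 of the 9, and 0.0% of all genes in either direction (1595 genes had an unadjusted p under 0.05, the smallest adjusted p was 0.251, and 36 genes passed without the block). The largest differences at 1.7 mM were -1.32 for Mmp13 (adjusted p = 0.251), 1.01 for Timp3 (adjusted p = 0.313) and 0.89 for Mmp2 (adjusted p = 0.251). A line through the tumour arrays gave a slope in log2 per mM for each gene. It was positive for Timp3 (0.139, SE 0.0299, adjusted p = 0.0272) and Mmp2 (0.130, SE 0.0300, adjusted p = 0.0304). It was negative for Adam8 (-0.105, SE 0.0133, adjusted p = 0.0234), Mmp9 (-0.0596, SE 0.0114, adjusted p = 0.0240) and Mmp13 (-0.0972, SE 0.0279, adjusted p = 0.0489). Slopes were called for 2 genes upward and 3 downward of the 9, against 16.5% and 14.4% of all genes. Without the block the slopes of Mmp13 and Mmp9 had adjusted p-values of 0.276 and 0.275, and without the filter that of Mmp13 had 0.0600. Leaving out any 1 of the 4 PBS arrays left 0 genes called in the slope test, and the adjusted p of Adam8 was then 0.0591 to 0.113.

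**Figure D2:**
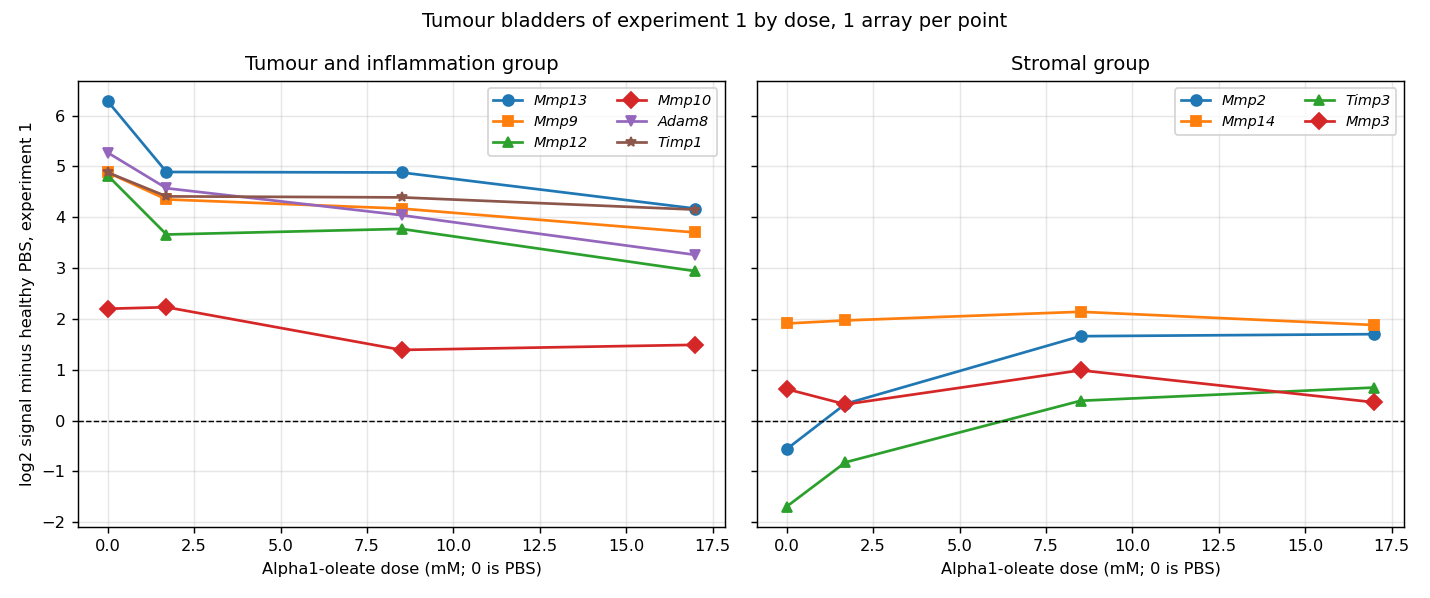
The x axis is the alpha1-oleate dose in mM (0 is PBS) and the y axis the log2 signal minus that of the healthy PBS array of experiment 1, with 1 array per point and no replicate at any dose. On the left, Mmp13 goes from 6.28 to 4.17 and Adam8 from 5.27 to 3.26 between 0 and 17 mM; on the right, Mmp2 goes from -0.56 to 1.70 and Timp3 from -1.69 to 0.65, while Mmp14 stays between 1.88 and 2.14.

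Against healthy bladder, the 17 mM tumour array still held more Mmp13 (4.10), Mmp9 (3.67), Adam8 (3.18, each adjusted p = 0.0364) and Mmp2 (1.70, adjusted p = 0.0400). By limma 4 of the 9 genes were higher and 0 lower, where 2.61% of all genes were higher and 0.368% lower. Mmp13 and Adam8 are counted here, though their healthy values lay below the filter level, so their sizes and p-values are no independent support. In experiment 1 the Mmp2 signal was 3.25-fold that of the healthy PBS array. Timp1 (3.87, adjusted p = 0.0548) and Mmp14 (2.09, adjusted p = 0.0711) did not pass, nor did Mmp12 (2.29, adjusted p = 0.226) and Mmp10 (1.35, adjusted p = 0.0790). Timp3, at 0.51 (SE 0.24, adjusted p = 0.262), was not called apart from healthy bladder. Leaving out the healthy PBS array of experiment 2 together with the block gave an adjusted p of 0.261 for Mmp2, with the same difference of 1.70.

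**Figure D3:**
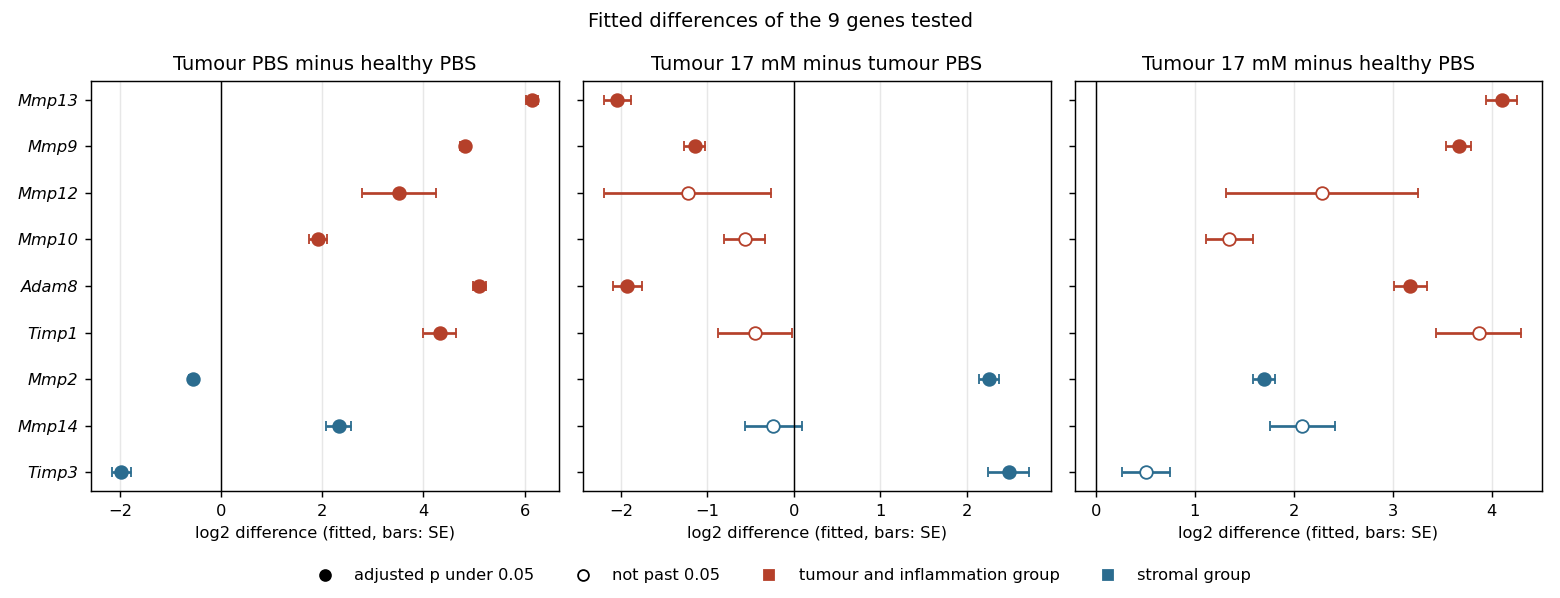
Each row is 1 of the 9 genes tested and the x axis is the fitted log2 difference, with bars of 1 SE; filled points had an adjusted p under 0.05. The 6 genes of the tumour and inflammation group (red) lie above 0 in the left panel and below 0 in the middle one, where 3 of them are filled, while Mmp2 and Timp3 (blue) change from below 0 to above 0.

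The marker sums changed with dose as well. In experiment 1, from sham to 1.7, 8.5 and 17 mM, fibroblast markers summed to 7310, 12600, 22400 and 22800, and smooth muscle markers to 11400, 15300, 30200 and 35900. At 17 mM 8 of 9 fibroblast and 8 of 8 smooth muscle markers tested rose. Mitosis markers summed to 5990, 5090, 2500 and 1810, with 8 of 9 lower at 17 mM, and neutrophil markers to 2930, 870, 737 and 765, with 4 of 6 lower. Macrophage markers summed to 9490, 10900, 9900 and 8230, with 1 of 10 higher and 0 lower. Urothelial markers summed to 2680, 4910, 13900 and 15800, with 10 of 10 higher at 17 mM, and endothelial markers to 683, 927, 1240 and 1130, with 5 of 10 higher. Genes listed as liver markers (9 measured, Fgb and Fga below the filter) summed to 900, 1200, 2510 and 3820, with 6 of 7 higher at 17 mM. The healthy PBS arrays summed to 2770 and 2270, so this sum is not particular to treated tumours. In experiment 1 Trf and Ttr read 11.07 and 8.91 on the healthy PBS array, and 9.55 and 4.84 on the sham array. Alb read 4.57 and 4.04 on these arrays and 10.15 at 17 mM. The part of the marker lists in the changes of Mmp2, Timp3, Mmp13, Mmp9 and Adam8 was not tested.

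**Figure D4:**
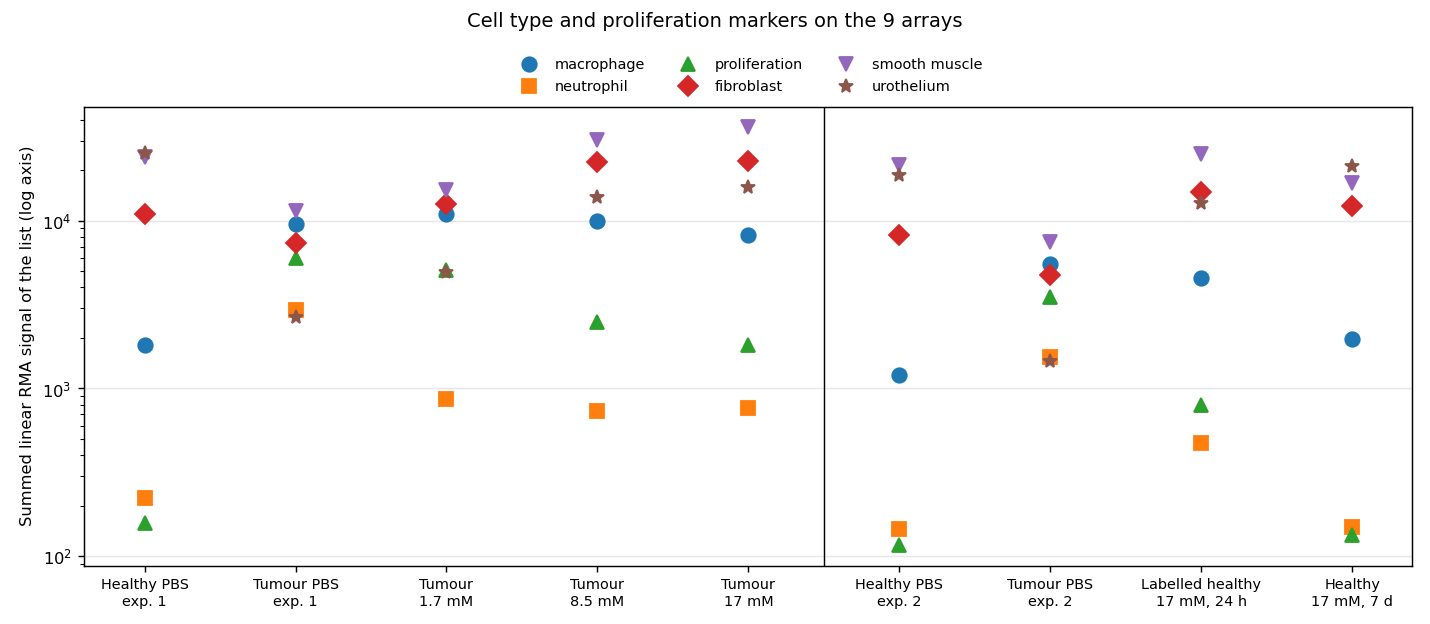
The y axis is the summed linear RMA signal of each marker list on a log scale, and the x axis the 9 arrays, with experiment 1 left of the line and experiment 2 right. Proliferation markers (mitosis genes) read 157 and 117 on the healthy PBS arrays, 1810 at 17 mM, 793 on the array labelled healthy, 17 mM, 24 h and 134 at 7 d, while fibroblast and smooth muscle markers were highest at 8.5 and 17 mM.

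Of the bladders labelled healthy, 1 array each was taken 24 h and 7 d after alpha1-oleate at 17 mM. On the array labelled healthy, 17 mM, 24 h, Mmp13, Mmp10, Mmp9, Mmp12, Mmp14, Adam8 and Timp1 lay between the healthy and tumour PBS arrays of experiment 2. The share of all genes that lay between them was not counted, so this position is not a result particular to these genes. Mmp13 read 6.24 there, against 2.62 and 8.62, and Mmp9 read 8.05, against 4.92 and 9.67. Adam8 read 6.53, against 4.07 and 9.01. Mmp2, at 9.45, and Timp3, at 9.45, lay above both of those arrays. By limma 0 of the 9 genes passed, as did 0.0% of all genes in either direction. Of all genes 2503 had an unadjusted p under 0.05, and the smallest adjusted p was 0.0568. Mmp13 (3.69) and Mmp9 (3.16) shared it with other genes, among them Mki67, Top2a, Cd68, S100a8 and Alb. Without the experiment block (no replicate block) 4 of the 9 genes and 126 of all genes passed. Besides the mitosis markers given above, macrophage markers summed to 4580 on this array against 1200 on the healthy PBS array of experiment 2, and neutrophil markers to 473 against 146. Fibroblast markers summed to 14900 against 8190, smooth muscle markers to 24800 against 21600 and urothelial markers to 12800 against 18600. Liver markers summed to 2660 against 2270, with Alb (albumin) at 8.80 against 3.85. Alb read 8.83 and 10.15 in the tumours at 8.5 and 17 mM, and 3.52 to 4.57 on all other arrays. The part of these markers in the protease values was not tested.

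At 7 d Mmp13 (2.69), Mmp10 (5.18), Adam8 (4.41) and Mmp9 (4.34) lay near the healthy PBS array of experiment 2, with differences of 0.07, 0.07, 0.34 and -0.58. Mmp12 read 6.04 against 4.91 (fitted difference 1.78) and Timp1 read 6.32 against 5.65 (fitted difference 0.95). Mmp14 read 9.12 against 6.72 and Mmp2 read 9.51 against 7.95, which were 5.28-fold and 2.95-fold higher. The second Mmp14 probe set was 2.63 higher. Neither gene passed over all genes (fitted differences 2.19 and 1.56, unadjusted p = 0.0053 and 0.0006). Limma called 0.0% of all genes here in either direction, with 1096 at an unadjusted p under 0.05, a smallest adjusted p of 0.403, and 15 genes without the block. Fibroblast markers summed to 12200 at 7 d and 8190 on the healthy PBS array, and macrophage markers to 1960 and 1200. Between 24 h and 7 d limma likewise called 0.0% of all genes in either direction (2660 at an unadjusted p under 0.05, 73 without the block). Mmp9 differed by 3.71 and Mmp13 by 3.55 (both adjusted p = 0.0914), and Mmp2 (-0.06) and Mmp14 (-0.07) were near equal at both times.

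Whether the change at 17 mM differed between tumours and bladders labelled healthy was tested as the difference of the differences, added after the values were seen. Set against the change on the array labelled healthy, 17 mM, 24 h, the change in tumours was lower for 4 of the 9 genes and higher for 1. The shares of all genes were 8.52% and 10.6%. Lower here refers to the change from PBS arrays and not to the signal itself. These were Mmp13 (-5.73), Adam8 (-4.47), Mmp9 (-4.31, each adjusted p = 0.0264), Timp1 (-3.69, adjusted p = 0.0480) and Timp3 (2.07, adjusted p = 0.0477). The test subtracts the healthy PBS values, which lay below the filter level for Mmp13 and Adam8. Both genes are counted, but their sizes and p-values are no independent support. Set against the change on the 7 d array, 0 of the 9 passed, where 2.76% of all genes were higher and 0.443% lower. Mmp13 and Adam8, with the same limit, had an adjusted p of 0.0506 there and Timp3 one of 0.0548. Leaving out the sham tumour of experiment 1, with the block, gave -3.73 for Mmp13 and 3.21 for Timp3, and leaving out the healthy PBS array of experiment 1 gave Timp3 an adjusted p of 0.0596. Without the filter Timp3 (adjusted p = 0.0631) and Timp1 (0.0643) did not pass at 24 h. Both tests share the sham and healthy PBS arrays with the comparisons above.

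Around the cluster on chromosome 9, the order in the RefSeq gene table is Mmp13, Mmp12, Mmp1b, Mmp3, Mmp1a, Mmp10, Mmp8, Mmp27, Mmp20 and Mmp7. Mmp1b, Mmp3, Mmp1a, Mmp8 and Mmp20 lay below the filter, and Mmp27 had no value. Mmp13 and Mmp12 at one end and Mmp10 within the cluster rose in tumours, next to genes that were hardly measured. Mmp7, matrilysin, at the other end, rose by 0.46 in sham tumours (adjusted p = 0.0245) and fell by 0.83 at 17 mM (adjusted p = 0.0292). Mmp7 read only 4.15 to 5.40 over the 9 arrays, near the filter level of 4.16. Across experiments its groups overlapped, with 4.96 in a healthy bladder and 4.64 in a sham tumour, and 4.58 at 17 mM. The genes flanking the cluster are Dcun1d5, before Mmp13, and Tmem123, after Mmp7. In experiment 1 Dcun1d5 read 8.04 on the healthy PBS array and 9.11 on the tumour PBS array, and Tmem123 read 11.65 and 10.24.

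Among the other matrix metalloproteases (16 listed, 11 measured, 6 tested), 1 rose and 2 fell in sham tumours and 3 rose and 1 fell at 17 mM. Mmp23 fell by 1.24 in tumours (adjusted p = 0.0042) and rose by 1.98 at 17 mM (adjusted p = 0.0159), and Mmp17, a membrane-anchored member, fell by 0.88 (adjusted p = 0.0095) and rose by 1.34 (adjusted p = 0.0211). Mmp19 rose by 1.90 at 17 mM (adjusted p = 0.0315). Of the other inhibitors (4 listed, 3 measured, 2 tested), 0 rose and 1 fell in sham tumours, and 1 rose and 0 fell at 17 mM. Both calls were for Reck, a membrane-anchored inhibitor. It fell by 2.44 in tumours (adjusted p = 0.0024) and rose by 2.73 at 17 mM (adjusted p = 0.0159). Reck and Timp3 thus moved in the same directions in both, and Timp1 did not share them.

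Of the other ADAM sheddases (8 tested), 4 rose and 3 fell in sham tumours, and 3 rose at 17 mM. Adam19 rose by 2.30 in tumours, Adam9 by 1.06 and Adam17, the TNF-releasing enzyme, by 1.03. Adam28 fell by 2.72, and rose by 1.41 at 17 mM (adjusted p = 0.0217), while Adam19 read -0.65 at 17 mM (adjusted p = 0.130). Of the ADAMTS proteases (16 listed, 14 measured, 9 tested), 5 rose and 1 fell in tumours and 1 rose and 1 fell at 17 mM. Adamts4, an aggrecanase, rose by 2.01 in tumours, and Adamts5, the other main aggrecanase, fell by 1.64 and rose by 2.09 at 17 mM (adjusted p = 0.0215). Adamts7 rose by 1.0 in tumours and fell by 0.98 at 17 mM (adjusted p = 0.0385).

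Genes that activate or induce the proenzymes (9 listed and measured, 8 tested) had 4 higher and 1 lower in sham tumours and 0 higher and 4 lower at 17 mM. Lcn2, whose product in humans binds and stabilises MMP9, rose by 3.67 and fell by 4.03 at 17 mM (adjusted p = 0.0159). Plaur, the urokinase receptor, rose by 3.39 and fell by 1.53 (adjusted p = 0.0161). Cd44, which docks Mmp9 at the cell surface, rose by 3.12 and fell by 1.0, and Plat, tissue plasminogen activator, rose by 2.82 and fell by 1.04. Of the AP-1 and ETS factors (12 measured, 10 tested), 3 rose and 3 fell in tumours, and 2 rose and 3 fell at 17 mM. Fosl1, an AP-1 subunit, rose by 4.23 in tumours (adjusted p = 0.0024) and fell by 1.91 at 17 mM (adjusted p = 0.0159). Fosl2, another AP-1 subunit, went the other way, with -1.275 in tumours (adjusted p = 0.00402) and 1.05 at 17 mM (adjusted p = 0.0232). Jun rose by 2.09 and Ets1 by 2.06, and Fos fell by 1.54.

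Matrix proteins that these enzymes cut (13 measured, 12 tested, with Col1a2 below the filter) had 6 higher and 3 lower in sham tumours and 7 higher and 0 lower at 17 mM. Vcan, the proteoglycan versican, rose by 2.87 in tumours (adjusted p = 0.0024), and Nid1, a basement membrane linker, by 2.12. The small proteoglycans Dcn and Lum fell by 1.53 and 1.33 in tumours, and rose by 1.91 and 2.78 at 17 mM. Col1a1, a chain of fibrillar collagen, read 0.54 in tumours (adjusted p = 0.192) and rose by 1.88 at 17 mM (adjusted p = 0.0487), and Lama2 rose by 2.21. The shares of all genes called in each comparison, given above, are the background for these counts, and no list was tested against it.

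Likeness was measured as Pearson's r over the 7 arrays other than healthy PBS, each as the difference from the healthy PBS array of its experiment, so that arrays share a reference. Among the 9 genes, Mmp13 was most like Mmp9 (0.986), Adam8 most like Mmp13 (0.981) and Timp1 most like Mmp9 (0.955). Mmp2 and Timp3 were most like each other (0.940). Mmp10 was most like Adam8 (0.937), Mmp12 most like Timp1 (0.817), and Mmp14 had no like partner, with -0.17 to Mmp2. Over all genes kept other than the liver markers, Mmp13 was nearest to Evi2a (0.998), Ifi27 (0.996) and Pirb (0.996). Mmp12 was nearest to Ddx51 (0.992), Cdk12 (0.985) and Il27ra (0.985). All differences of Mmp12 in experiment 1 were taken from its healthy value of 3.13, which lay below the filter level. Mmp2 was nearest to Spats2 (0.999), Htra3 (0.999) and L3hypdh (0.998), and Timp3 to Ppp1r14a, Pdgfd and 4930533K18Rik (each at least 0.999). With 7 points and many genes, these values only describe the arrays.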

How the data were processed

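RNA of mouse bladders was measured on 9 Affymetrix mouse PM arrays, from 100 ng of total RNA per the labels. The deposited values are log2 signals that the authors made by RMA with Transcriptome Analysis Console (4.0.1.36), as the submitters' processing notes name it, per the labels. Sorted values deviated by 0.022 log2 within experiments and differed by 0.329 between them, so the experiments were treated as normalized apart. Of 45077 probe sets, 28898 had 1 gene, 551 several, 15588 none, and 40 were controls. Gene symbols were updated through Entrez IDs for 28689 of them; where a gene had several probe sets (7180 genes), the set of highest mean signal represented it. The arrays give no count or detection call. limma 3.58.1 (R 4.3.3) was fitted with 7 groups plus experiment, which left 1 residual degree of freedom, and was tested on simulated data. The dose slope left 3. Same-numbered arrays come from the same experiment per the labels, and the deviations of same-numbered arrays correlated at 0.647. Of the genes beyond the 10, up to 4 per list and comparison were named, by size among those called there, besides likeness and genes flanking the cluster. The members and lists were chosen with earlier results of these data known. Alternatives were no block, joint quantile normalization, no filter, a filter on the lowest 50%, a variance trend, averaged probe sets, and leaving out each PBS array or the array labelled healthy, 17 mM, 24 h. Figures used Python 3.11.15 and matplotlib 3.10.9.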

Additional observations from a re-analysis of the deposited data

Results flagged for a closer look

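The change at 17 mM in tumours (against tumour PBS) differed from the change on the array labelled healthy, 17 mM, 24 h (against healthy PBS) for 5 of the 9 genes tested, by a limma test of the difference itself that was added after the values were seen. It was -5.73 for Mmp13, -4.47 for Adam8, -4.31 for Mmp9 and -3.69 for Timp1, and 2.07 for Timp3. Mmp13 and Adam8 are counted among the 5, though their healthy PBS values lay below the filter level. Their sizes and p-values in this test are therefore no independent support. Over all 11969 genes 10.6% were higher and 8.52% lower. Leaving out the sham tumour of experiment 1, together with the block, gave -3.73 for Mmp13 and 3.21 for Timp3. Timp3 had an adjusted p of 0.0596 without the healthy PBS array of experiment 1, and without the filter Timp3 (0.0631) and Timp1 (0.0643) did not pass. Each value is 1 treated array against 2 sham arrays on either side. The array labelled healthy, 17 mM, 24 h is the one whose 9 mitosis markers lay between the healthy and tumour PBS arrays. Against the 7 d array 0 of the 9 genes passed this test.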

How the results depend on the processing

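Over 99 values of the genes described (9 genes in 11 comparisons), 11 alternatives gave 1062 values, of which 843 kept direction and side of the threshold, 132 newly passed, 52 no longer passed and 35 changed sign. Without experiment as a block (no replicate block), genes called numbered 3172 for tumour against healthy PBS (6852 with it), 1217 at 17 mM (3147), 945 at 8.5 mM (1872), 36 at 1.7 mM (0), 590 for 17 mM against healthy PBS (356), 1125 for the slope (3698), 126 at 24 h, 15 at 7 d and 73 between these times (0 each), and 1193 (2288) and 823 (383) for the tests of the difference at 24 h and 7 d. Of the 9 genes it called 3 at 17 mM, 2 at 8.5 mM, 8 for 17 mM against healthy PBS, 3 for the slope, 4 at 24 h, 3 between the times and 3 for the difference at 7 d. Mmp14 then read 0.17 at 17 mM, 0.26 at 1.7 mM and 0.0107 per mM, Mmp13 -0.51 and Mmp10 -0.15 at 7 d, and Mmp9 0.065 for the difference at 7 d. The median of all genes shifted to 0.17 at 17 mM, 0.18 at 8.5 mM, 0.255 at 1.7 mM, 0.235 for 17 mM against healthy PBS, -0.25 at 24 h and -0.26 at 7 d, since groups of 1 array are then set against arrays of both experiments. The share of calls that were higher was 59.58% at 17 mM (90.06% without the block, 46.6% quantile-normalized together), 70.25% at 8.5 mM (95.66%, 50.95%), 53.43% for the slope (83.38%, 49.07%), 87.64% for 17 mM against healthy PBS (97.12%, 54.02%), and 55.42% (77.2%, 51.15%) and 86.16% (98.06%, 58.71%) for the differences at 24 h and 7 d. Quantile-normalized together, genes called were 3480 at 8.5 mM, 2275 for 17 mM against healthy PBS, 836 at 24 h, 7 at 7 d, 877 between the times, and 3742 and 2410 for the differences. Of the 9 genes 7, 7, 5, 8 and 4 passed for 17 mM against healthy PBS, at 24 h, between the times and for the differences. Mmp14 at 8.5 mM read -0.0161 there and -0.0025 with the mean of probe sets. No filter gave 202 genes for 17 mM against healthy PBS, 3 of the 9 genes for the difference at 24 h and 0 genes for that at 7 d. The filter on the lowest 50%, the mean of probe sets and the variance trend gave 577, 684 and 732 genes for 17 mM against healthy PBS, 121, 96 and 198 genes and 4 of the 9 genes each at 24 h, and 835, 972 and 1058 genes and 3 of the 9 genes each for the difference at 7 d. The variance trend gave 59 genes and 2 of the 9 between the times and 8 of the 9 for the difference at 24 h.

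Leaving out each PBS array in turn (together with the block, except for the slope) gave 2230 to 2807 genes for tumour against healthy PBS, 850 to 1378 at 17 mM, 519 to 1125 at 8.5 mM, 7 to 212 at 1.7 mM, 244 to 676 for 17 mM against healthy PBS, 76 to 153 at 24 h, 7 to 21 at 7 d, 59 to 107 between the times, 617 to 1480 and 407 to 1184 for the differences, and 0 for the slope. Of the 9 genes it called 3 to 5 at 17 mM, 2 at 8.5 mM, 5 to 8 for 17 mM against healthy PBS, 0 for the slope, 5 at 24 h, 0 to 1 at 7 d, 2 to 4 between the times and 1 to 3 for the difference at 7 d. At 17 mM Mmp10 ranged from -0.71 to 0.29, Mmp14 from -0.03 to 0.37 and Timp1 from -0.73 to 0.02. At 8.5 mM Mmp13 ranged from -1.40 to 0.03, Mmp10 from -0.81 to 0.19, Mmp9 from -0.71 to 0.02 and Timp1 from -0.49 to 0.26. At 1.7 mM Mmp13 ranged from -1.39 to 0.04, Mmp9 from -0.53 to 0.20, Mmp14 from 0.06 to 0.46 and Timp1 from -0.47 to 0.28. Timp3 ranged from -0.11 to 0.27 at 24 h, Mmp13 from -1.08 to 0.07 and Mmp10 from -0.37 to 0.07 at 7 d. For the difference at 7 d Mmp10 ranged from -0.56 to 0.44 and Mmp9 from -0.30 to 0.43. Without the sham tumour of experiment 1 treated tumours are set against the sham array of experiment 2 alone. The causes of the other shifts were not tested. Leaving out the array labelled healthy, 17 mM, 24 h changed no count of calls by more than 1.5 times where it could be fitted.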
